A study of Mus musculus with 26 samples.

Results

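Calcium-binding protein genes were examined across subtypes of mouse retinal neurons. The 9 genes were Calb1, Calb2, Pvalb, Scgn, Cabp5, Cabp1, Necab1, Necab2 and Caln1, taken by symbol from the probe table of the array, out of 18193 genes with a symbol of their own. All 9 were on the array, and all 9 were among the 13951 genes bright enough to be tested. Where a gene had several probe sets (groups of short probes for a transcript), the brightest over all arrays stood for it and the others were checked against it. Calb1 had 4 probe sets, Caln1 had 3, Cabp5 and Necab1 had 2 each, and the remaining 5 genes had 1.

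Retinas of mice at postnatal day 6 were dissociated, neurons carrying a reporter were isolated by flow cytometry, and their amplified RNA was hybridised to single-colour Affymetrix arrays. There were 13 subtypes with 2 replicates each, from different litters, 26 arrays in all. The 6 ganglion cell subtypes were all taken from a Thy1-positive gate: BD, J, W3 and W7 cells by YFP, Cdh3 cells by GFP and Isl2 cells by beta-galactosidase. The 5 amacrine subtypes were starburst cells (Kusabira Orange-positive, Thy1-negative), AII cells (GFP), J amacrine cells (YFP, labelled glycinergic), PaxCre cells (GFP, labelled GABAergic) and MP amacrine cells (CFP-positive, VC1.1-positive). The 2 bipolar subtypes were ON bipolar cells (GFP) and MP bipolar cells, which came from the same line as the MP amacrine cells but were VC1.1-negative. The MP mice were mixed C57BL/6 and CD1, the AII and Cdh3 mice were Swiss Webster crosses, and all others were C57BL/6. Where MP, AII or Cdh3 cells were compared with subtypes of another strain, subtype and strain therefore cannot be told apart. All animals carried a reporter, no unsorted retina was included, and the number of animals pooled per litter is not given in the sources used here.

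The proteins encoded by these genes bind calcium through EF hands, helix-loop-helix motifs that each hold a calcium ion. Calbindin (Calb1), calretinin (Calb2), parvalbumin (Pvalb) and secretagogin (Scgn) are soluble proteins, the first 3 known mainly as buffers that shape calcium signals and secretagogin as a sensor linked to secretion. The CaBPs and calneuron (Caln1) are relatives of calmodulin, and CaBP1 is known to modulate voltage-gated calcium channels. The NECABs are neuronal proteins that pair EF hands with a monooxygenase-like domain. In the retina, antibodies to calbindin, calretinin, parvalbumin, secretagogin and CaBP5 are standard labels for particular neuron types.

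Values are given as log2(intensity + 16) after quantile normalization of the 26 arrays. On this scale the lowest deposited intensity gives 4.09 and the median of all values is 6.14. The class labels were checked against marker genes. The mean level of the ganglion cell markers was 10.37 to 10.93 in the ganglion cell subtypes, 5.74 to 7.66 in the amacrine subtypes and 5.54 to 6.11 in the bipolar subtypes. The amacrine markers lay at 8.59 to 10.47 in the amacrine subtypes and 7.67 or lower elsewhere, and the bipolar markers lay at 8.93 to 10.39 in the bipolar subtypes and 7.62 or lower elsewhere. The rod markers reached 9.26 in amacrine and 9.18 in bipolar subtypes, and the microglia markers reached 10.19 in ganglion cell subtypes; their part in the member values was not tested. The deposited arrays lay on 2 scales, with median intensities of 61.5 to 74.8 in the 12 ganglion cell arrays and 37.4 to 47.1 in the other 14, so before normalization scale and ganglion cell class cannot be told apart. A sorted pool also gives no distinction between fewer cells that express a gene and less RNA per cell.

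Every member except Pvalb differed between subtypes in at least 1 comparison. Starburst cells were high in Calb1 and low in Necab1, the other 4 amacrine subtypes were high in Necab1, ganglion cells were high in Calb2 and Caln1, and bipolar cells were high in Scgn and Cabp5 and low in Calb1, Calb2 and Caln1. Starburst cells also lay among the ganglion cell subtypes in Calb2 and Caln1, and J amacrine cells were low in Calb1 too. The Calb1 difference between bipolar and ganglion cells was absent on its second brightest probe set. The one between bipolar and amacrine cells was -0.57 there, under the size threshold. The range of the 13 subtype means was 7.89 for Cabp5, 7.58 for Calb1, 6.62 for Calb2, 5.26 for Caln1, 5.02 for Necab1, 4.09 for Scgn, 3.54 for Necab2, 2.87 for Cabp1 and 0.81 for Pvalb. Only 3 of the 13951 tested genes had a larger range than Cabp5 and 12 a larger one than Calb1, whereas 12003 had a larger one than Pvalb. A gene was called different when the Benjamini-Hochberg adjusted p from limma, over all tested genes, was under 0.05 and the difference was at least 1 log2 unit. Over 15 comparisons 40 of 135 member tests passed, against 8.46% of all such tests, and 8 of the 9 members passed in at least 1 comparison, against 50.6% of all genes. The members were chosen with earlier results of these data known, and the comparisons share arrays. These shares are therefore a description and not a test of the list.

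**Figure D1:**
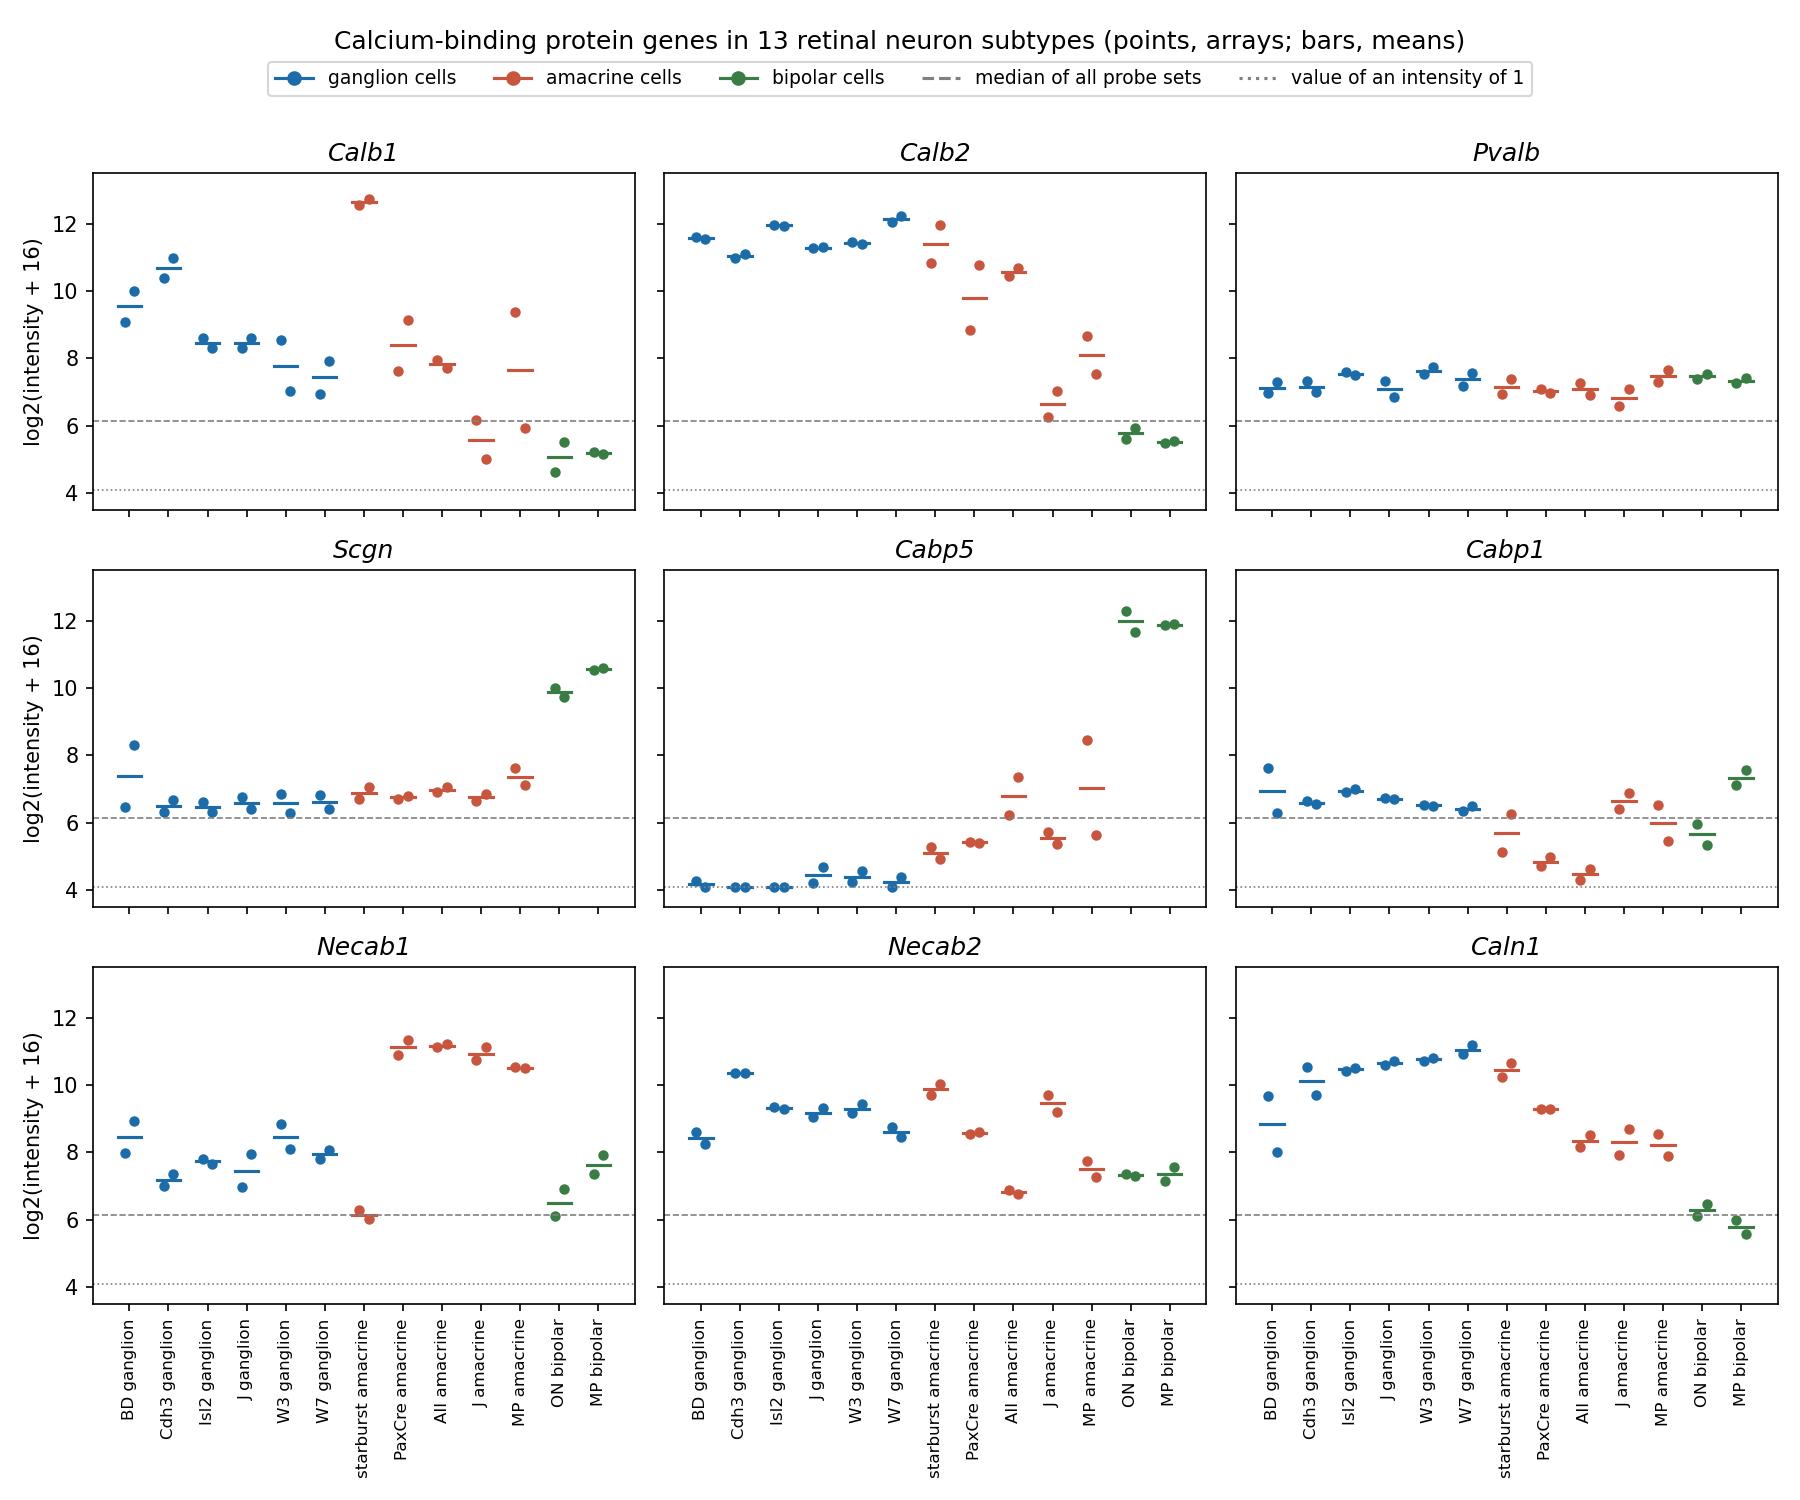
Level of each of the 9 genes (log2(intensity + 16), quantile normalized) in the 13 subtypes; each point is 1 array and each bar the mean of 2 replicates, coloured by class, with the overall median dashed and the value of an intensity of 1 dotted. Calb1 peaked in starburst cells at 12.56 and 12.73, Cabp5 and Scgn in the bipolar subtypes, and Pvalb stayed between 6.57 and 7.74 on all 26 arrays.

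Among the 3 classes, the comparison of ganglion with amacrine subtypes called 3 members higher and 2 lower in ganglion cells, against 24.8% of all tested genes called. Bipolar against amacrine subtypes called 2 members higher and 5 lower, against 10.4% of all genes, and bipolar against ganglion cell subtypes called 2 higher and 4 lower, against 29.6%. The median difference over the 9 members was 0.31, -1.11 and -0.80 in these comparisons. The 3 comparisons share arrays, so their counts are not independent of one another. Within classes, an F test over the 5 amacrine subtypes called 7 of 9 members, against 52.5% of all genes. The same test over the 6 ganglion cell subtypes called 2 of 9, Necab2 and Caln1, against 6.37% of all genes. The Necab2 call was lost among C57BL/6 subtypes (adjusted p = 0.0556), and the Caln1 call without the second BD array (0.131) and on the second brightest probe set (0.0831). No member was called for Isl2, J, W3 or W7 cells against the other ganglion subtypes, where 0.222%, 2.04%, 0.803% and 1.37% of all genes were called by limma. At an unadjusted p under 0.05 the members were 0 of 9 for Isl2 and J, 1 for W3 (Necab1) and 3 for W7 cells (Calb1, Necab2 and Caln1).

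**Figure D2:**
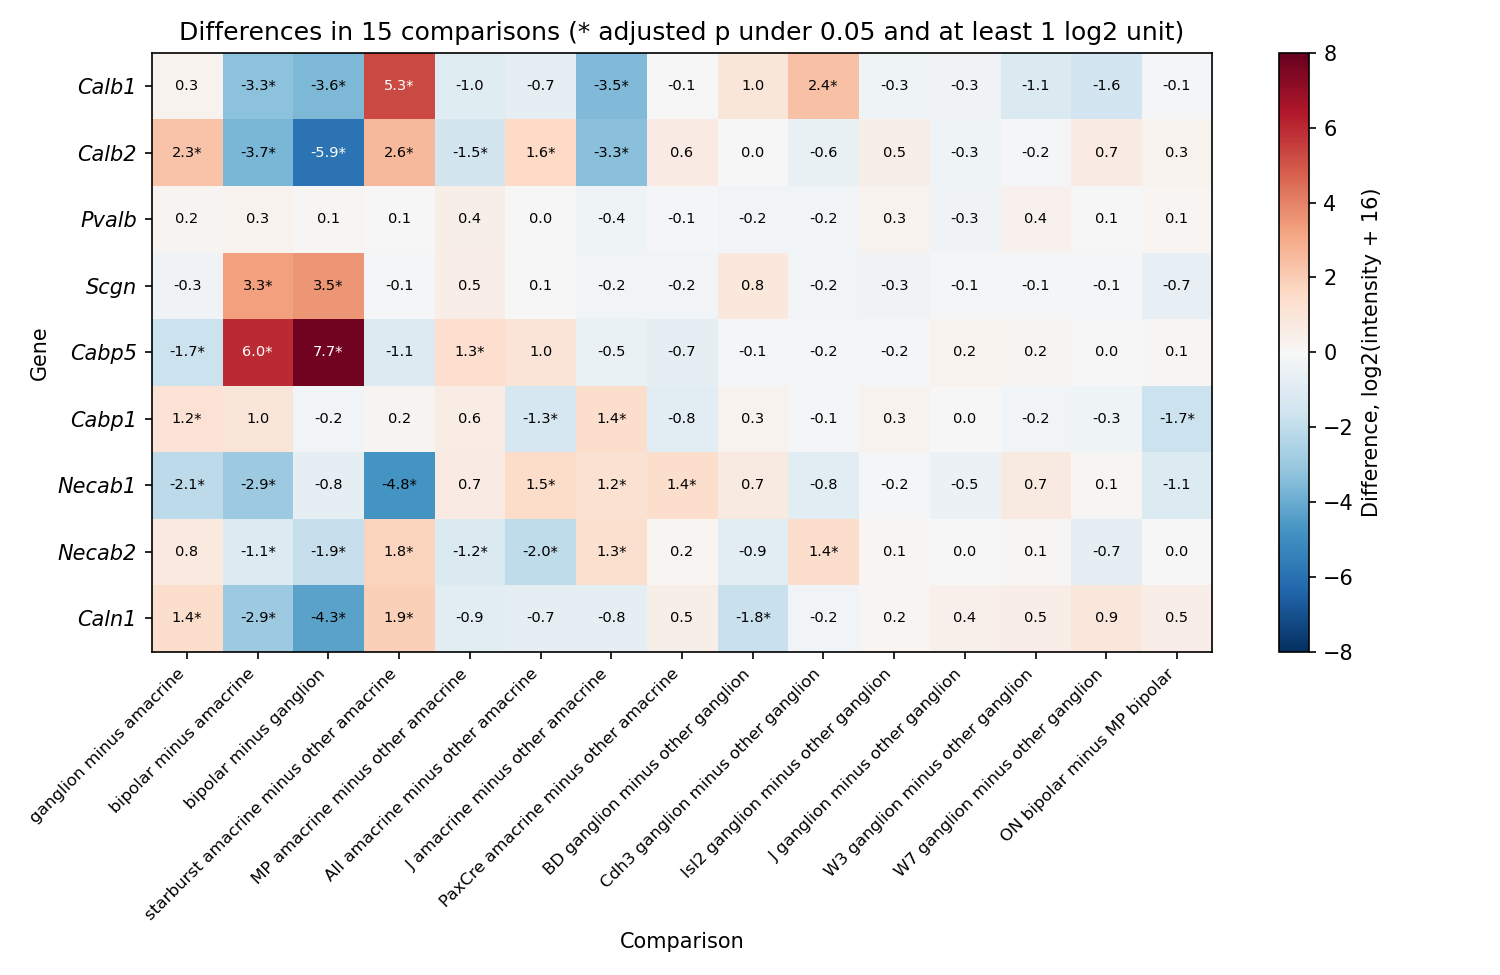
Difference in log2(intensity + 16) of each of the 9 genes (rows) in the 15 comparisons (columns), with blue for lower and red for higher in the group named before the word minus, and a star where the gene was called. Cabp5 shows the largest difference, 7.69 for bipolar against ganglion cell subtypes, and Pvalb lies near 0 throughout.

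Calb1 encodes calbindin, a buffer used in the mouse retina as a label of horizontal cells and of some amacrine and ganglion cells. It was highest in starburst cells, at 12.56 and 12.73. Cdh3 ganglion cells followed at 10.38 and 10.99 and BD ganglion cells at 9.07 and 10. The starburst arrays lay above all others, and the Cdh3 arrays above all but those. BD cells did not overlap J ganglion cells, the next by mean, but did overlap MP amacrine (up to 9.36) and PaxCre cells (up to 9.13). A middle group of J, Isl2, W3 and W7 ganglion cells and PaxCre, AII and MP amacrine cells lay between 5.94 and 9.36, and their replicate ranges largely overlapped. The lowest levels were in J amacrine cells (6.16 and 5.0), MP bipolar cells (5.23 and 5.17) and ON bipolar cells (4.63 and 5.52), and all 4 bipolar arrays were under the overall median.

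Starburst cells exceeded the other amacrine subtypes in Calb1 by 5.29 ± 0.62 log2 units (SE), 39.1-fold on this scale (limma, adjusted p = 3.68e-06), with no overlap between arrays. In this comparison 4 members were called higher and 1 lower, against 10.9% of all genes. J amacrine cells were lower than the other amacrine subtypes by 3.55 ± 0.62 (adjusted p = 0.000823), a contrast in which starburst cells are on the other side. Bipolar cells lay below amacrine cells by 3.28 ± 0.46 (adjusted p = 2.32e-05) and below ganglion cells by 3.59 ± 0.45 (adjusted p = 1.47e-06). With subtype means as units the adjusted p values for the bipolar comparisons were 0.231 and 0.0532. Ganglion and amacrine cells differed by 0.31 ± 0.33 (adjusted p = 0.43), with a negative sign in 4 alternatives.

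Cdh3 ganglion cells were 2.35 ± 0.60 above the other ganglion subtypes in Calb1 (limma, adjusted p = 0.0373), and 2 members were called higher there, against 2.09% of all genes. This call was lost when any of 14 of the 26 arrays was left out, with an adjusted p of 0.424 without the second Cdh3 array. On the second brightest probe set the difference was -0.07, and on the fourth Cdh3 cells were at 5.77 against 4.38 to 4.85 in the other ganglion subtypes, which was not tested. Markers of horizontal cells, which also carry calbindin, had mean levels of 6.98 to 7.70 in ganglion cell subtypes, highest in Cdh3 cells. Their means were 7.04 to 7.42 in amacrine and 7.10 to 7.15 in bipolar subtypes. For Cdh3 cells 2 of the 5 tested were called higher than in the other ganglion subtypes. Of these 5, 0 were called lower and 3 were not called, with a median difference of 0.43. In Cdh3 cells Onecut2 was at 9.60 and Onecut1 at 7.04, with Onecut1 at 5.55 to 6.21 in the other ganglion subtypes. Lhx1, too dim to be tested, was at 4.33 in Cdh3 cells and at 4.15 to 5.09 in all 13 subtypes. The other listed markers were Septin4, Tpm3, Slc4a3 and Onecut3, the last also too dim to be tested. The part of these markers in the Calb1 level was not tested. Cdh3 cells were also the only ganglion subtype from a Swiss Webster cross, so subtype and strain cannot be told apart.

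The 3 dimmer Calb1 probe sets gave the starburst result and little else. Their starburst means were 9.24, 6.32 and 10.15, and no other subtype exceeded 5.77 on any of them, the level of Cdh3 cells on the fourth. Over the 13 subtype means they correlated with the brightest at r = 0.617, 0.659 and 0.792. The intermediate Calb1 levels of ganglion cells therefore rest on 1 probe set. For bipolar against ganglion cells the second brightest gave 0.25, and the median over probe sets -0.15, in place of -3.59. For bipolar against amacrine cells the second brightest gave -0.57 in place of -3.28, and the call was lost.

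**Figure D3:**
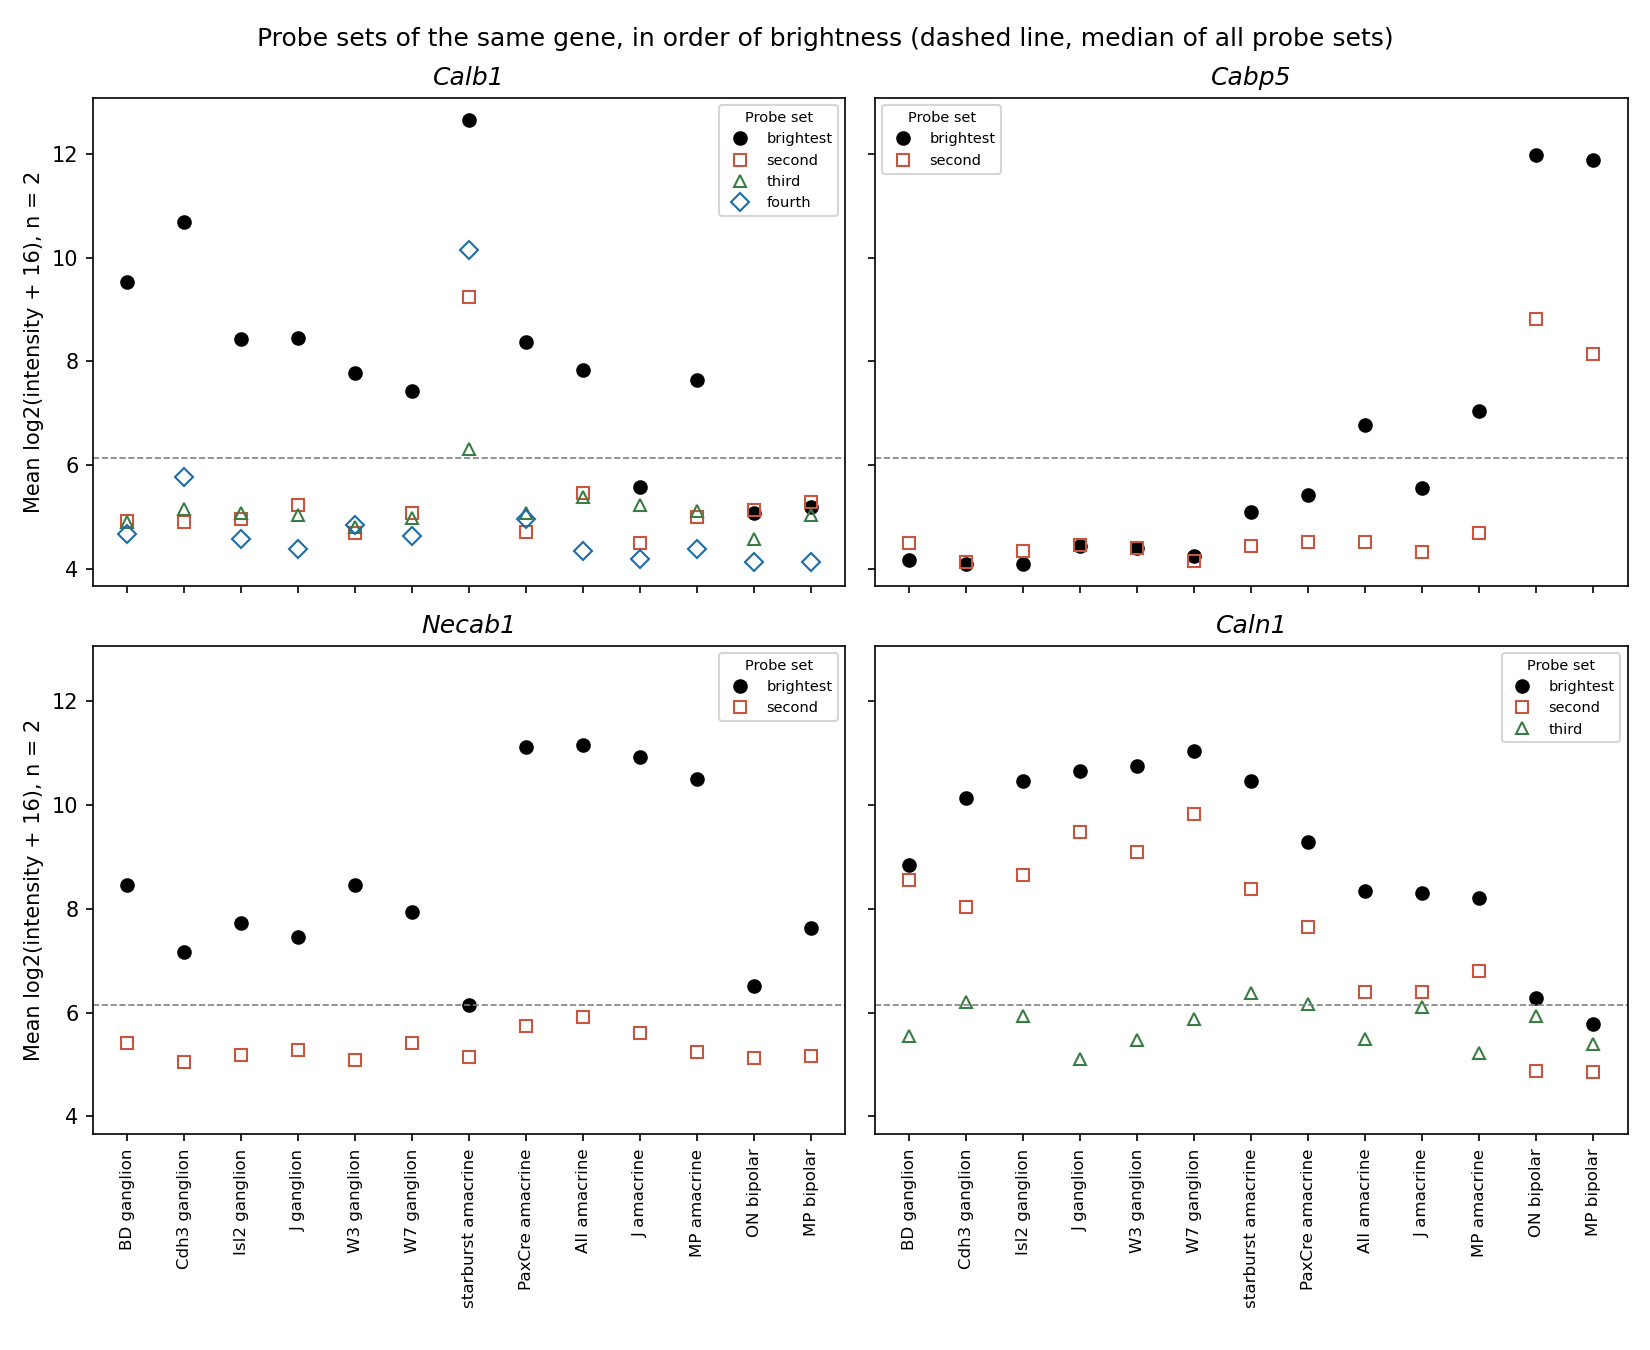
Mean level of every probe set (n = 2 arrays per subtype; log2(intensity + 16)) of the 4 genes with more than 1, in order of brightness, with the overall median of 6.14 as a dashed line. All 4 Calb1 probe sets peak in starburst cells, both Cabp5 probe sets peak in the bipolar subtypes, and the dimmer Necab1 probe set stays under the median.

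Calb2 encodes calretinin, a buffer closely related to calbindin that labels ganglion cells and many amacrine cells. Its single probe set was high in all 6 ganglion cell subtypes. W7 cells were at 12.05 and 12.21, Isl2 at 11.97 and 11.93, BD at 11.60 and 11.54, W3 at 11.46 and 11.39, J at 11.27 and 11.29 and Cdh3 at 10.99 and 11.10. The F test over ganglion subtypes did not pass (adjusted p = 0.514). Among amacrine cells the levels were graded, from starburst (10.84 and 11.95) and AII (10.43 and 10.68) through PaxCre (8.85 and 10.76) and MP (8.66 and 7.54) to J amacrine cells (6.25 and 7.04). ON bipolar cells (5.59 and 5.94) and MP bipolar cells (5.48 and 5.54) were under the overall median.

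Ganglion cells were above amacrine cells in Calb2 by 2.27 ± 0.20, 4.81-fold (limma, adjusted p = 9.53e-09), although the arrays of the 2 classes overlapped because starburst cells lay at ganglion cell levels. Bipolar cells were below amacrine cells by 3.66 ± 0.27 (adjusted p = 7.68e-09; 0.0505 with subtype means as units) and below ganglion cells by 5.93 ± 0.27, 60.9-fold (adjusted p = 1.38e-12), without overlap. Against the other amacrine subtypes starburst cells were higher by 2.62 ± 0.37 (adjusted p = 3.15e-05) and J amacrine cells lower by 3.32 ± 0.37 (adjusted p = 8.57e-06). AII cells were higher by 1.57 ± 0.37 (adjusted p = 0.00271), in a comparison with 2 members higher and 2 lower against 16.2% of all genes, and without the second AII array the adjusted p was 0.0597. MP amacrine cells were lower by 1.5 ± 0.37 (adjusted p = 0.00599), in a comparison with 1 member higher and 2 lower against 10.4% of all genes. Without the second MP amacrine array this difference was -0.94 (adjusted p = 0.208).

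Pvalb is the gene of parvalbumin, a fast-neuron buffer that marks certain ganglion cells in the adult mouse retina. It showed no such pattern on these arrays, which hold no age other than postnatal day 6. With 1 probe set and no subtype that stood out, an even RNA level and an even probe background cannot be told apart. All 26 arrays lay between 6.57 and 7.74, above the overall median but with ranges that overlapped their neighbours throughout the order of the 13 subtypes. The highest subtype mean was W3 ganglion cells at 7.63 and the lowest J amacrine cells at 6.82. The class differences were 0.21 ± 0.10 for ganglion against amacrine cells (limma, adjusted p = 0.0791), 0.29 ± 0.14 for bipolar against amacrine cells (adjusted p = 0.127) and 0.08 ± 0.14 for bipolar against ganglion cells (adjusted p = 0.63). No comparison called Pvalb, MP amacrine cells being the sole case with an unadjusted p under 0.05 (limma, 0.44 ± 0.19, adjusted p = 0.094), and the F tests gave adjusted p values of 0.205 over amacrine and 0.429 over ganglion subtypes. Without normalization the bipolar against ganglion cell difference was -0.51.

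Scgn encodes secretagogin, a calcium sensor found in cone bipolar cells. It was at 10.52 and 10.58 in MP bipolar cells and at 10 and 9.73 in ON bipolar cells. The other 22 arrays lay between 6.29 and 8.31, the highest being the second BD ganglion array, whose replicate was at 6.45. MP amacrine cells were at 7.61 and 7.11. Bipolar cells exceeded amacrine cells by 3.27 ± 0.23, 9.62-fold (limma, adjusted p = 3.49e-09), and ganglion cells by 3.52 ± 0.22, 11.5-fold (adjusted p = 1.52e-10), in both cases without overlap. The 2 bipolar subtypes differed by 0.68 ± 0.39, with MP bipolar cells higher (adjusted p = 0.438). Neither amacrine nor ganglion cell subtypes differed among themselves by the F test (adjusted p = 0.578 and 0.511), but without the first BD array the ganglion cell value was 0.0034.

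Cabp5 encodes CaBP5, a calmodulin relative of rod bipolar cells and some cone bipolar cells. Its level was 12.29 and 11.67 in ON bipolar cells and 11.87 and 11.89 in MP bipolar cells. Among amacrine cells it was 8.44 and 5.64 in MP, 6.22 and 7.35 in AII, 5.71 and 5.38 in J, 5.44 and 5.39 in PaxCre and 5.28 and 4.93 in starburst cells. In the 12 ganglion cell arrays it lay between 4.09 and 4.69, with 6 of them at the lowest deposited intensity. The bipolar arrays stood apart from all others, and the ganglion cell arrays were the lowest. The gene was above the overall median on 7 of 26 arrays, so it entered the tests through the groups in which it was high.

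Bipolar cells were above amacrine cells in Cabp5 by 5.95 ± 0.33, 61.9-fold (limma, adjusted p = 1.34e-10), and above ganglion cells by 7.69 ± 0.32, 207-fold (adjusted p = 4.66e-13). The second fold depends on the pseudocount: the difference was 10.18 with a pseudocount of 1 and 5.88 with 64. On the second probe set it was 4.14. Amacrine cells were above ganglion cells by 1.74 ± 0.24 (adjusted p = 3.35e-06), and this was -0.16 for ganglion minus amacrine on the second probe set (adjusted p = 0.187). That probe set lay at 8.81 in ON and 8.15 in MP bipolar cells and at 4.69 or lower elsewhere, and over the 13 subtypes it correlated with the brightest at r = 0.951. The ON and MP bipolar subtypes differed by 0.10 ± 0.55 (adjusted p = 0.977).

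MP amacrine cells were above the other amacrine subtypes in Cabp5 by 1.33 ± 0.44 (limma, adjusted p = 0.0334). The call was lost on the second probe set (0.24), with the median over probe sets (0.78) and with a pseudocount of 64 (0.93). It was also lost with a pseudocount of 1 (1.61, adjusted p = 0.08). The result came from the first MP array. Without it the difference was -0.07 (adjusted p = 0.916), and without the first AII, second starburst or second PaxCre array the adjusted p was 0.0586, 0.0548 or 0.0502. The mean of the bipolar markers was 7.90 on the first and 7.33 on the second MP amacrine array, the rod markers 9.56 and 8.97, and the ganglion cell markers 8.10 and 7.21. The second array was the higher for the microglia markers (7.68 against 6.64), the amacrine markers (8.67 against 8.51) and the Müller glia markers (7.31 against 7.12). The part of these lists in the Cabp5 value was not tested. The MP amacrine replicates differed by more than 1 log2 unit in 4 members, Calb1, Calb2, Cabp5 and Cabp1, against 4.14% of all tested genes.

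Because Cabp5 and Scgn were high in the same 2 subtypes (r = 0.95 over 13 subtype means), their upstream sequences are shown, from 250 bases before to 50 bases after the start site in RefSeq (build GRCm38.p6, printed 5′ to 3′ on the strand of the gene). The windows are chr7:13397905-13398204 on the plus strand for Cabp5 and chr13:23991165-23991464 on the minus strand for Scgn. Capitals mark TAATCC, the core bound by the homeodomain factors OTX2 and CRX, searched on both strands.
Cabp5: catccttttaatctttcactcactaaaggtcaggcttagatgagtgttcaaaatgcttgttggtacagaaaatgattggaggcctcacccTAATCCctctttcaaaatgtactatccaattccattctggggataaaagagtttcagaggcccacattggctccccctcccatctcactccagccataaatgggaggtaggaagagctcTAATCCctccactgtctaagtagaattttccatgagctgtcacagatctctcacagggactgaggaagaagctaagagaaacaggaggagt
Scgn: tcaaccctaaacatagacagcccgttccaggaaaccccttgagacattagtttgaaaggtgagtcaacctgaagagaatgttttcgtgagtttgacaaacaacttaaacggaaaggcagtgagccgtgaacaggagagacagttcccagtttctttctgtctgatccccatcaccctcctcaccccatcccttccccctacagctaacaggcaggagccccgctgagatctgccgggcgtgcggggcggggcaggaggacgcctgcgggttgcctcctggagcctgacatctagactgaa

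The Cabp5 window held TAATCC at 2 places, beginning 160 and 41 bases before the start site, and the Scgn window held none. Of 32851 promoter windows of this length, 7.06% held TAATCC at least once and 0.359% held it at 2 or more places. The Cabp5 window had no CG dinucleotide and a GC content of 44.7%, whereas the Scgn window had 11 CG and 54.7%, against medians of 7 and 52.7% over all windows. The Scgn window held 1 GC box (GGGCGG, in 35.7% of windows), and neither held TAATTA (5.29%), an E-box (CANNTG, 72.3%) or TATAAA (13.6%). These matches describe the letters of the windows and are not measured sites. Windows were found for 6 of the 9 genes; Calb1, Calb2 and Necab1 were not matched.

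Cabp1 encodes CaBP1, which with its splice form caldendrin acts on calcium channels. The range of its subtype means was exceeded by 2354 tested genes. MP bipolar cells were highest at 7.12 and 7.56, the 12 ganglion cell arrays lay between 6.29 and 7.61, and J amacrine cells were at 6.40 and 6.87. MP amacrine cells were at 6.53 and 5.45, starburst cells at 5.14 and 6.26, ON bipolar cells at 5.96 and 5.33, PaxCre cells at 4.72 and 4.97 and AII cells at 4.30 and 4.63. The AII arrays were below those of all other subtypes.

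Ganglion cells were above amacrine cells in Cabp1 by 1.16 ± 0.17, 2.24-fold (limma, adjusted p = 9.89e-06), and by 0.63 with a pseudocount of 64 and 0.98 among C57BL/6 subtypes, both under the size threshold. Within amacrine cells AII cells were lower by 1.33 ± 0.32 (adjusted p = 0.00348) and J amacrine cells higher by 1.39 ± 0.32 (adjusted p = 0.00738). With a pseudocount of 64 these differences were -0.61 and 0.74, both under the size threshold. The AII arrays lay near the floor of 4.09, so the AII size depends on the pseudocount. The J amacrine comparison called 3 members higher and 2 lower, against 6.06% of all genes. Without the first AII array the AII adjusted p was 0.0624, and without the second J array the J amacrine adjusted p was 0.115. ON bipolar cells were below MP bipolar cells by 1.70 ± 0.40 (adjusted p = 0.0131), the only member called between the bipolar subtypes, against 5.03% of all genes. Without the second MP bipolar or the second ON array its adjusted p was 0.152 or 0.147. Bipolar against amacrine cells gave 0.97 ± 0.24 (adjusted p = 0.00435), just under the size threshold, and -0.08 when only C57BL/6 subtypes, with ON as the sole bipolar one, were used.

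Caln1 encodes calneuron 1, a calmodulin relative of the Golgi membrane in neurons. W7 ganglion cells were highest at 10.91 and 11.19, followed by W3 (10.72 and 10.81), J (10.60 and 10.71) and Isl2 ganglion cells (10.43 and 10.51). Starburst cells, at 10.25 and 10.66, lay among the ganglion cell subtypes, with Cdh3 at 10.54 and 9.71 and BD at 9.67 and 8.02. The other amacrine subtypes followed, with PaxCre at 9.30 and 9.29, AII at 8.17 and 8.51, J at 7.92 and 8.70 and MP at 8.55 and 7.90. ON bipolar cells (6.11 and 6.48) and MP bipolar cells (5.99 and 5.59) were lowest and did not overlap with any other subtype.

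Ganglion cells were above amacrine cells in Caln1 by 1.39 ± 0.17 (limma, adjusted p = 1.05e-06), and bipolar cells were below amacrine cells by 2.88 ± 0.24 (adjusted p = 3.08e-08) and below ganglion cells by 4.28 ± 0.23, 19.4-fold (adjusted p = 1.78e-11). Starburst cells exceeded the other amacrine subtypes by 1.91 ± 0.32 (adjusted p = 0.000206). BD cells were below the other ganglion subtypes by 1.77 ± 0.31 (adjusted p = 0.00855), where 1 member was called against 0.495% of all genes. Without the second BD array this was -0.94 (adjusted p = 0.97), and on the second brightest probe set -0.47. The second brightest probe set correlated with the brightest at r = 0.953 over the 13 subtypes and the third at 0.184.

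Necab1 encodes an EF-hand protein of particular interneuron groups in the nervous system. It split the amacrine class: AII cells were at 11.12 and 11.21, PaxCre cells at 10.89 and 11.35, J amacrine cells at 10.74 and 11.12 and MP amacrine cells at 10.52 and 10.50, whereas starburst cells were at 6.28 and 6.02. The 8 arrays of the 4 high subtypes lay above all other arrays, and the starburst mean was the lowest of the 13 subtypes. Ganglion cells lay between 6.97 and 8.94, MP bipolar cells at 7.35 and 7.91 and ON bipolar cells at 6.10 and 6.92. The high group included the subtype labelled glycinergic (J) and the one labelled GABAergic (PaxCre).

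Starburst cells were below the other amacrine subtypes in Necab1 by 4.78 ± 0.29, 27.5-fold (limma, adjusted p = 6.29e-10). The class differences, -2.10 ± 0.15 for ganglion against amacrine cells (adjusted p = 8.14e-10) and -2.91 ± 0.21 for bipolar against amacrine cells (adjusted p = 6.3e-09), include the low starburst cells on the amacrine side. With subtype means as units the bipolar value had an adjusted p of 0.171. Bipolar against ganglion cells gave -0.80 ± 0.21 (adjusted p = 0.00267), under the size threshold. AII, PaxCre and J amacrine cells were called higher than the rest of their class by 1.49, 1.43 and 1.20, and each of these comparisons has starburst cells on the other side. For PaxCre it was the only member called, against 6.54% of all genes. Without the second PaxCre or second J amacrine array the adjusted p values were 0.0958 and 0.127. The second probe set of Necab1 stayed between 5.05 and 5.91, under the overall median on all 26 arrays, and gave -0.48 for starburst cells.

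Necab2 encodes a relative of NECAB1. Cdh3 ganglion cells were highest at 10.36 and 10.37, above every other array. Starburst cells were at 9.70 and 10.04 and J amacrine cells at 9.71 and 9.21, and the next were the Isl2 (9.35 and 9.30), W3 (9.17 and 9.44) and J ganglion cells (9.06 and 9.31). W7 cells were at 8.75 and 8.47, PaxCre cells at 8.54 and 8.60 and BD cells at 8.61 and 8.24. The lowest levels were in MP amacrine (7.75 and 7.27), MP bipolar (7.14 and 7.56), ON bipolar (7.35 and 7.29) and AII cells (6.89 and 6.76).

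Cdh3 cells exceeded the other ganglion subtypes in Necab2 by 1.39 ± 0.17 (limma, adjusted p = 5.32e-05). This call held with each of the 26 arrays left out in turn. Cdh3 cells were the only ganglion subtype from a Swiss Webster cross, so subtype and strain cannot be told apart, and leaving out arrays does not change that. Within amacrine cells starburst cells were higher by 1.78 (adjusted p = 4.27e-07) and J amacrine cells by 1.26 (adjusted p = 8.95e-05), whereas AII cells were lower by 2.03 (adjusted p = 1.13e-07) and MP cells by 1.17 (adjusted p = 9.98e-05). Without the second MP amacrine array the MP difference was -0.93. Bipolar cells were below amacrine cells by 1.11 ± 0.13 (adjusted p = 2.76e-06) and below ganglion cells by 1.87 ± 0.13 (adjusted p = 3.88e-10), and with subtype means as units these adjusted p values were 0.45 and 0.0512. Ganglion cells were 0.75 ± 0.09 above amacrine cells (adjusted p = 1.21e-06), under the size threshold, and 1.20 above without normalization. Among C57BL/6 subtypes alone, which leave out AII, MP and Cdh3 cells, the sign turned to -0.33, the starburst difference was 0.85 and the J amacrine difference 0.24, both under the size threshold.

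Members were also set side by side over the 13 subtype means, as a description of subtypes that share arrays and normalization. Besides Scgn and Cabp5, Calb2 and Caln1 varied together (r = 0.90), as did Calb1 and Calb2 (0.73) and Necab2 and Caln1 (0.72). Caln1 ran opposite to Cabp5 (-0.91) and Scgn (-0.88), and Calb2 ran opposite to Cabp5 (-0.86) and Scgn (-0.78). Necab1 and Necab2 had an r of -0.33: starburst cells were low in Necab1 and high in Necab2, AII cells were the reverse, and J amacrine cells were high in both. Calb1 and Necab1 lie close together on chromosome 4, with 1 protein-coding gene between them, Tmem64, and their r was -0.28.

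The tested genes with the most similar subtype means, by Pearson r over 13 subtypes, were different for each member. For Cabp5 they were Otx2os1 (0.995), Tle6 (0.99) and Lhx4 (0.987), and for Scgn they were Otor (0.977), Cabp2 (0.975) and Lrtm1 (0.962). Lhx4 is a bipolar cell transcription factor and Cabp2 is a CaBP of bipolar cells. For Calb2 they were Arpc5 (0.979), Wsb2 (0.966) and Ppp2r3c (0.957), for Caln1 Scn2b (0.941), Atp1b1 (0.93) and Rgs19 (0.927), and for Necab2 Il4i1 (0.957), Mlec (0.955) and Dctn2 (0.952). Scn2b is a sodium channel subunit and Atp1b1 a sodium pump subunit. For Calb1 they were Krt35 (0.927), Slc46a1 (0.915) and Nsun4 (0.892), for Necab1 Cers6 (0.918), Vash2 (0.915) and Ntn4 (0.90), for Cabp1 Pla2g4c (0.915), Plpp2 (0.892) and Paqr7 (0.876), and for Pvalb Sspo (0.914), Efcab2 (0.779) and Mir670hg (0.776). With 13 points and 13951 genes searched, these values are the top of a ranking and carry no test.

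Other EF-hand genes were counted from lists of CaBPs and NECABs, neuronal calcium sensors, calmodulin, S100 proteins, secretory pathway proteins and others, 31 of 43 listed genes being tested. Of these 31, 10 were higher and 3 lower in ganglion than in amacrine cells, 6 higher and 6 lower in bipolar than in amacrine cells, and 6 higher and 11 lower in bipolar than in ganglion cells. The shares called were 41.9%, 38.7% and 54.8%, against 24.8%, 10.4% and 29.6% of all genes. They are a description, because these lists too were chosen with earlier results of these data known. Without normalization 14 were higher and 2 lower in ganglion than in amacrine cells, and no called gene changed sign. The neuronal calcium sensors, relatives of recoverin with the Kcnip genes included, moved in both directions. Hippocalcin (Hpca) was the most raised of them in ganglion over amacrine cells (3.29) and the most reduced in bipolar against ganglion cells (-5.26). Recoverin (Rcvrn), a photoreceptor and bipolar cell protein, was lower in ganglion than amacrine cells (-2.25) and higher in bipolar than ganglion cells (3.52); it lay at 4.09 to 4.26 in the ganglion subtypes, at or near the floor, so these sizes depend on the pseudocount. Against amacrine cells, bipolar cells were higher in Guca1a (2.46), a guanylate cyclase activator of photoreceptors, and lower in Vsnl1 (-2.01).

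In the other lists, Cabp2 was above amacrine and ganglion levels in bipolar cells by 2.22 and 2.25. It was at 6.69 in MP and 6.03 in ON bipolar cells and at 4.09 to 4.21, at or near the floor, in every other subtype, so it was tested through the bipolar arrays and these sizes depend on the pseudocount. Cabp4, a photoreceptor synapse protein, was higher in bipolar than amacrine and ganglion cells by 1.01 and 1.07. S100a10, the partner of annexin A2, was higher in ganglion than amacrine cells by 6.23 and lower in bipolar than ganglion cells (-7.12). It lay at 4.38 in MP and 4.79 in ON bipolar cells, near the floor, and at 4.90 to 6.06 in the amacrine subtypes. These sizes therefore depend on the pseudocount. S100a16 was lower in ganglion than amacrine cells (-1.78) and higher in bipolar than ganglion cells (1.85). In the secretory pathway list Rcn1 was lower in bipolar than amacrine (-1.37) and ganglion cells (-2.28), and Rcn3 was higher in ganglion than amacrine cells (1.01). Efhd2, swiprosin-1, was higher in ganglion than amacrine cells (1.07) and lower in bipolar cells against amacrine (-1.21) and ganglion cells (-2.28). Efhd1 was lower in ganglion than amacrine cells (-1.16). Its ganglion subtypes lay at 4.26 to 4.48, near the floor, and its SD was 1.49 in starburst cells. Efhd2 was highest in J ganglion cells (10.29), where the microglia markers were also highest, and its SD was 1.52 in Cdh3 cells, where the microglia markers were at 9.48 and 6.04 on the 2 arrays. All 9 microglia markers were called higher in ganglion than amacrine cells, and their part in the Efhd2 differences was not tested. The one calmodulin-like gene tested, Calml4, was higher in bipolar than amacrine and ganglion cells by 1.12 and 1.56, with MP bipolar cells at 7.66 and ON bipolar cells at 5.18, while the amacrine subtypes lay at 4.84 to 6.23 and the ganglion subtypes at 4.65 to 5.08. In the rod marker list, levels of 6.78 to 9.26 in amacrine and 8.65 to 9.18 in bipolar subtypes stood beside 5.50 to 6.82 in ganglion cells, and their part in the Rcvrn, Guca1a and Cabp4 differences was not tested.

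**Figure D4:**
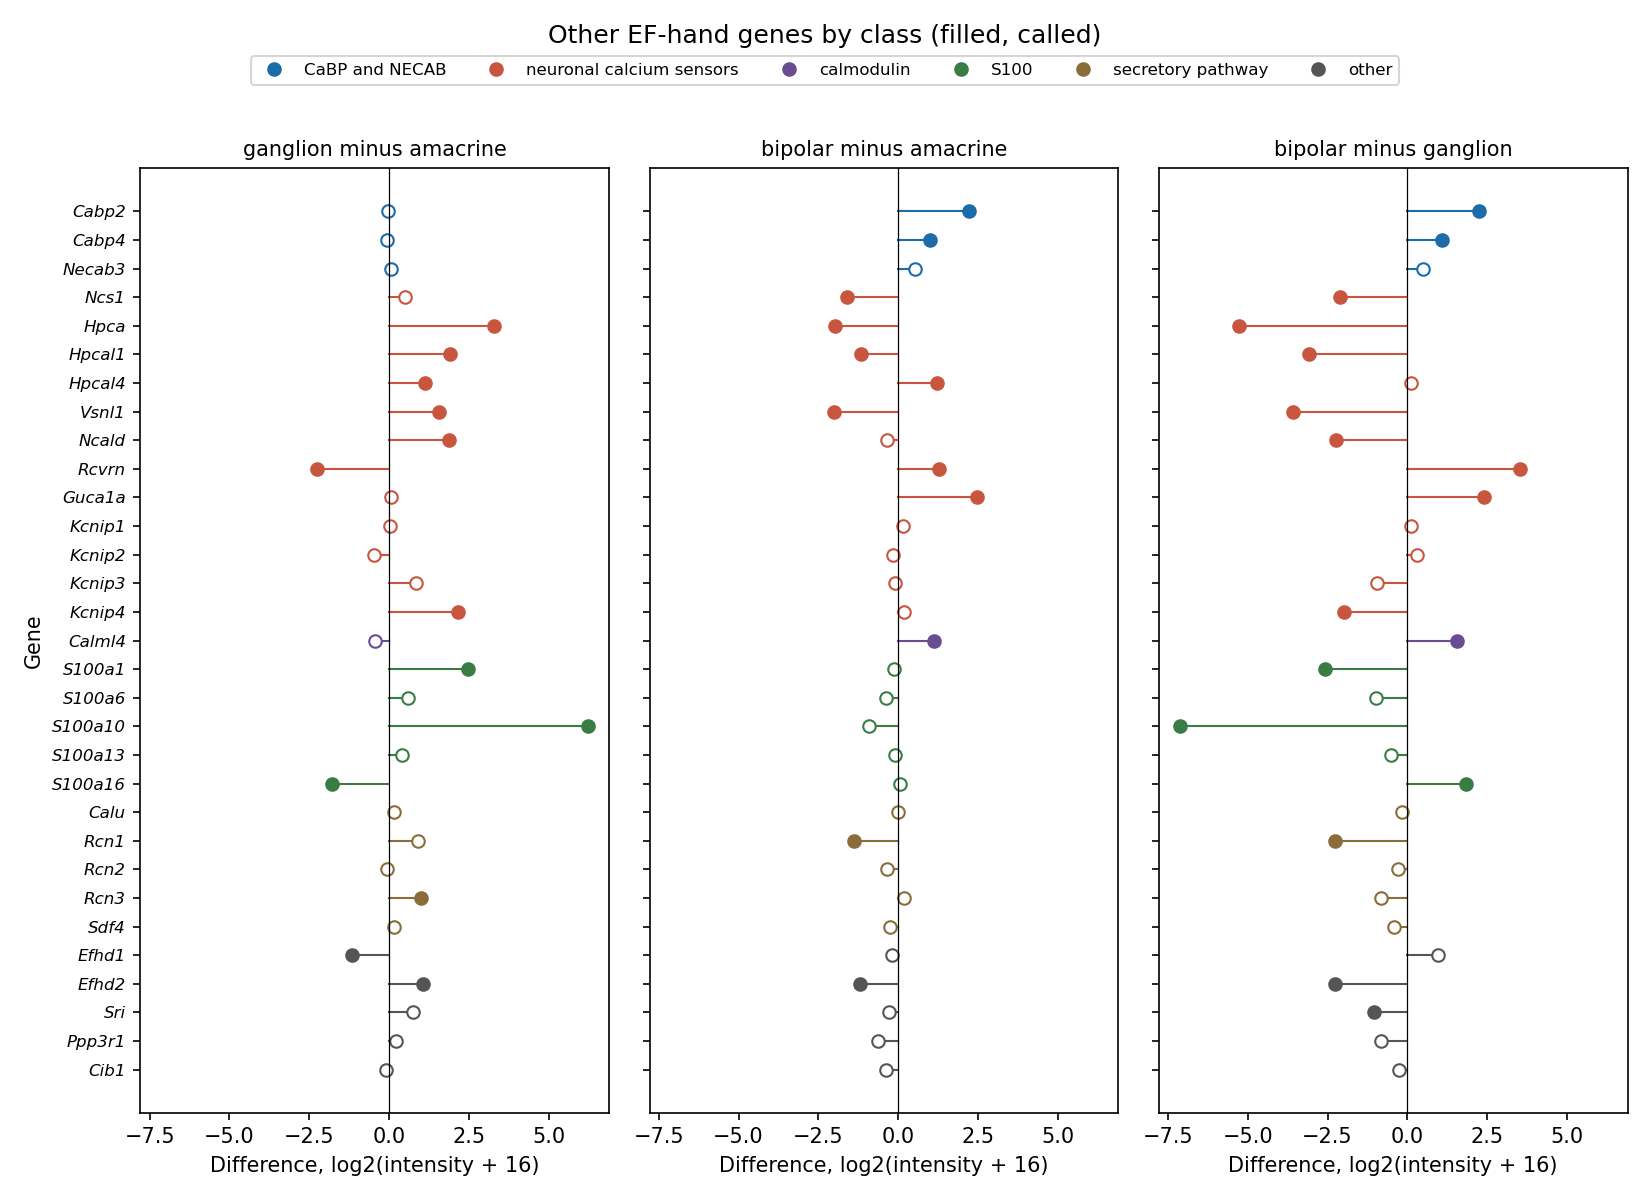
Difference in log2(intensity + 16) of each tested EF-hand relative (vertical axis) in the 3 class comparisons (panels), coloured by list and filled where called. S100a10 has the largest differences, 6.23 in ganglion against amacrine cells and -7.12 in bipolar against ganglion cells, and Hpca reaches -5.26 in the latter. The S100a10 sizes depend on the pseudocount, because its means in amacrine and bipolar subtypes were under the overall median.

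Within classes the neuronal calcium sensors supplied most of the called relatives. In starburst cells Hpcal1 was 4.0 and Ncs1 1.65 above the other amacrine subtypes, and Hpcal4 (-2.61) and Rcn1 (-2.12) were below. AII cells were higher in Ncald (1.87) and Hpcal4 (1.37) and lower in Hpca (-3.35) and Hpcal1 (-2.18). PaxCre cells were higher in Hpcal4 (2.35) and Hpca (1.56), J amacrine cells lower in Ppp3r1 (-1.39), a calcineurin subunit, and Hpcal1 (-1.29), and MP amacrine cells higher in Kcnip4 (2.29) and Guca1a (1.99) and lower in Ncs1 (-1.10). In the same MP amacrine comparison 6 of 7 rod markers and 5 of 9 bipolar markers were called higher, and Guca1a had an SD of 1.46 between the MP amacrine replicates; their part in the Guca1a difference was not tested. The shares of the 31 relatives called were 29.0%, 22.6%, 9.68%, 6.45% and 19.4% for starburst, AII, PaxCre, J and MP amacrine cells, against 10.9%, 16.2%, 6.54%, 6.06% and 10.4% of all genes. These comparisons share arrays with one another. Among ganglion cells only Hpcal4 in Cdh3 cells (1.53) and S100a6 in J cells (3.04) were called, 1 of 31 relatives (3.23%) in each case against 2.09% and 2.04% of all genes. J ganglion cells also had the highest mean levels of microglia (10.19) and vascular (7.75) markers, whose part in the S100a6 level was not tested. All 6 relatives called between the bipolar subtypes, 19.4% against 5.03% of all genes, were lower in ON than in MP bipolar cells, with Hpcal4 (-2.74) and Calml4 (-2.48) the most.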

How the data were processed

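The deposited values were linear array intensities whose lowest value was 1. Which software and scaling produced them is not given in the sources. Per the labels, cells were freed with papain, sorted, and their RNA went through 2 amplification rounds and biotin labelling.

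Here log2(intensity + 16) was computed, array medians spread over 0.76, and quantile normalization was applied to the 26 arrays. Apart from 64 controls there were 45037 probe sets, of which 9160 without a symbol and 932 with several were left out. For 34741 of the 34945 others the symbol was taken from RefSeq by gene identifier, whether or not it differed. A gene was tested if at least 2 arrays lay above the overall median. A group mean per subtype was fitted in R 4.3.3 with limma 3.58.1 (13 residual and 4.59 prior degrees of freedom), with two-sided tests adjusted by the Benjamini-Hochberg method over 13951 genes within each of 15 comparisons and 2 F tests. Errors come from the 2 litters of each subtype, and a class difference speaks for the sampled subtypes alone. Beyond the number of arrays, precision has no count behind it. On simulated data for 6 of the comparisons (the 3 class comparisons, starburst, Cdh3, and ON against MP bipolar cells) the fit recovered 86% to 100% of changes of 1.5 log2 units, with 0 to 4 false calls in each. The simulated noise was independent between arrays, and every array on 1 side received the same change. Real arrays had subtype differences within classes, and the BD replicates differed by more than 1 log2 unit in 10.7% of tested genes. The simulated rates therefore check the fit and need not hold for these data.

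The members and lists were chosen with earlier results of these data known. All members are named, with the 3 genes most correlated with each; of the relatives, the called highest and lowest of each list for the class comparisons, and the 2 highest and 2 lowest for the others. Alternatives covered scaling, pseudocount, filter, probe sets, variance model, array weights, replicate block, strain, subtype means as units, and leaving out each array.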

Additional observations from a re-analysis of the deposited data

How the results depend on the processing

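Of 2562 alternative values for 67 member results, 2465 kept their direction and their side of the threshold, 69 lost the call, 17 gained it and 11 changed sign. F tests have no direction and were counted by the threshold alone. Of the 40 settings 26 left out 1 array, and an array outside a within-class comparison leaves its difference unchanged. Part of this agreement was therefore fixed in advance. The sign changes were in Calb1 for ganglion minus amacrine cells (-0.91 with the median over probe sets, -0.81 with the second brightest, -0.54 with C57BL/6 subtypes and -0.04 without the second MP amacrine array, the lowest with an array left out, the highest being 0.65 without the first), for bipolar minus ganglion cells (0.25, second brightest) and for Cdh3 cells (-0.07, second brightest). They were also in Pvalb for bipolar minus ganglion cells (-0.51) and Scgn for ganglion minus amacrine cells (0.28), both without normalization, in Cabp5 for MP amacrine cells (-0.07 without their first array and 2.72 without their second), and, with C57BL/6 subtypes, in Cabp1 for bipolar minus amacrine cells (-0.08) and Necab2 for ganglion minus amacrine cells (-0.33). The causes were not tested.

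The count of all genes called changed by over 1.5 times in these settings. For ganglion against amacrine cells it was 3456, then 2096 with a pseudocount of 64 and 1859 with the stricter filter, which tests fewer genes. For bipolar against ganglion cells it was 4132, then 2681 and 2352. For bipolar against amacrine cells it was 1446, then 423 with subtype means as units. With a pseudocount of 64 the counts were 954 for MP amacrine (1450), 484 for J amacrine (846), 596 for PaxCre (912) and 73 for W3 cells (112). With the stricter filter they were 192 for Cdh3 (291), 10 for Isl2 (31), 145 for J ganglion (285), 68 for W3 and 582 for the F test over ganglion subtypes (889). Array weights gave 523 for J amacrine, 17 for BD (69), 147 for Isl2, 208 for W3 and 1540 for the ganglion F test. A pseudocount of 1 gave 15 for Isl2, and the median over probe sets 73 for W3. C57BL/6 subtypes gave 2290 for the amacrine F test (7322) and 556 for the ganglion one.

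With each array left out in turn the counts ran from 10 to 825 for BD, 186 to 374 for Cdh3, 10 to 60 for Isl2, 41 to 395 for J ganglion, 41 to 191 for W3, 67 to 251 for W7, 767 to 1269 for J amacrine and 664 to 1990 for the ganglion F test. Without normalization 84.2% of the called genes were higher in ganglion than amacrine cells, against 63.7%, and 17.3% were higher in bipolar than ganglion cells, against 37.7%, with shifts of 0.51 and -0.51 in the median of all genes. With each array shifted to the same median, 38.7% in place of 49.4% of the MP amacrine calls were higher.

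The replicate numbers are not stated to pair samples across subtypes, and pairing was not tested. Over 78 pairs of subtypes the correlation of their replicate 1 deviations ran from -0.228 to 0.374, with a median of 0.0299 and 21 above 0.1. With the number as a replicate block the counts were 3456, 1446 and 4132 for the class comparisons, 1532 for starburst, 1468 for MP, 2267 for AII, 863 for J amacrine and 919 for PaxCre cells. They were 71 for BD, 298 for Cdh3, 35 for Isl2, 285 for J ganglion, 121 for W3, 208 for W7, 727 for the bipolar subtypes, and 7519 and 995 for the amacrine and ganglion F tests. No member call changed with the block.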
